A study of Rattus norvegicus with 10 samples.

Results

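The 41 ribosomal protein genes described here were those for which a probe set carried exactly 1 gene symbol beginning with Rpl or Rps and a digit, or with Rplp. Kinase genes named Rps6k and pseudogene names with -ps were left out. They are 41 of 4736 genes that the arrays measured by such a probe set. Together 59 of 8740 non-control probe sets met the rule, and where a gene had several, the probe set with the highest mean index stood for it. The 41 genes comprised 28 of the large subunit, 11 of the small subunit and 2 of the P stalk. Of them, 5 are copies or relatives named after another ribosomal protein gene (Rpl3l, Rpl19l4, Rpl36al1, Rplp1l3 and Rps27l). After a filter that kept the 60% of probe sets with the highest mean index, 38 genes were tested, 26 of the large subunit, 11 of the small subunit and Rplp0.

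Ribosomes are built from ribosomal RNA and one copy of most ribosomal proteins, so the genes for these proteins are usually expressed in step with one another. Their mRNAs begin with a run of pyrimidines at the 5′ end, the TOP motif, through which the TOR pathway adjusts their translation. In neurons, protein synthesis in the cell body and near synapses is part of how lasting changes after drug exposure and learning are made.

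Rat brain RNA was hybridised to single-colour oligonucleotide arrays, 10 in all. The amygdala (AMY), caudate putamen (CPU), nucleus accumbens (NA in the labels), prefrontal cortex (PFC) and ventral tegmental area (VTA) each gave 1 array from cocaine-treated rats and 1 from rats given saline as control. Cocaine blocks dopamine reuptake, and the VTA holds dopamine neurons whose axons reach the other 4 regions. Not given in the sources used here were the strain and age of the rats, the dose, route and timing of cocaine, and whether a sample was 1 animal or a pool. P-values therefore reflect only how these samples varied, which may be technical. Values are the expression index of the program dChip, an intensity on a linear scale. An exact 0 was treated as no value, because probe sets of high index on other arrays were also listed at 0.

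Array medians lay between 2208 and 2309. The cocaine array of the PFC stood apart, with 226 exact zeros and a median correlation with the others of 0.910 over the tested probe sets, where the remaining arrays had 0.928 to 0.966. Some marker genes set apart the VTA, the CPU and nucleus accumbens together, and the PFC and amygdala together. Drd1, a dopamine receptor of striatal neurons, had an index of 8166 to 11001 in the CPU and nucleus accumbens and at most 3228 elsewhere, and Th, which makes dopamine precursors, had 6363 and 7544 in the VTA and at most 2884 elsewhere. The dopamine transporter Slc6a3 did not separate the VTA, at 3268 and 4552 against up to 3756 elsewhere. Among excitatory neuron genes, Cck had 28113 and 27640 in the PFC, 20542 and 18366 in the amygdala and at most 11180 elsewhere. Sv2b had 12918 to 16481 in these regions and at most 7620 elsewhere. The glutamate transporter Slc17a7 lay between 1218 and 1690 on every array. By limma all 5 tested genes of this list were higher in the PFC, 3 in the amygdala and 1 in the CPU. The shares of all probe sets were 1.34%, 0.401% and 1.74%. The choroid plexus gene Ttr had 41154 and 29441 in the amygdala and 34312 and 11221 in the CPU, saline before cocaine, and at most 4431 elsewhere.

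The sequence around the annotated start of these genes is shown because it is where the TOP motif lies, and because it is a property that the choice of members did not use. RefSeq promoters on GRCr8 were matched by symbol for 37 of the 41 genes. Each line gives 30 bases, 15 on either side of the annotated start, 5′ to 3′ on the strand of the gene, with the longest run of C and T in capitals. The first 7 are genes that passed the test in a region comparison below. Rps27l also passed and is not shown, and its longest run is 3. The last 4 are members picked for a long run at the start. This run crosses the start in Rps15, Rpl35a and Rps10 and begins at its first base in Rpl31.
Rps6, chr5:106420526-106420555, minus strand: gacgCCTCCTaggcggtcggctgtgtcaag
Rpl36, chr9:1533765-1533794, plus strand: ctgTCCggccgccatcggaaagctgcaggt
Rps16, chr1:92770643-92770672, plus strand: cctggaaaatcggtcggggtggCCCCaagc
Rps9, chr1:74430423-74430452, minus strand: tccggcggccacgTTTCTCTTTgtcacggg
Rpl7a, chr3:30637121-30637150, plus strand: CTCTCCTCCagccgagcaagatggtgagtg
Rpl26, chr10:54109677-54109706, plus strand: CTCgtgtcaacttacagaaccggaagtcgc
Rpl14, chr8:129163605-129163634, plus strand: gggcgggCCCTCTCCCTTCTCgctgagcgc
Rps15, chr7:10068101-10068130, minus strand: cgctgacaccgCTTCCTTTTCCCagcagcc
Rpl35a, chr11:81235007-81235036, minus strand: gcgggtcttgCCTTCCTCTTTCCgccatct
Rps10, chr20:5700730-5700759, minus strand: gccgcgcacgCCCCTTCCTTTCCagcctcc
Rpl31, chr9:49143096-49143125, plus strand: ccacaatccctcgcgCCTTTCCTTTCCaac

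A run of at least 8 C or T on the strand of the gene was found in 22 of 37 members, 59.5%, against 11.4% of all 33469 promoters in the table. Runs of at least 8 A or G, the same search on the other strand, were found in 1 member, 2.7%, and in 13% of all promoters. The letters CTTTCC stood in 24.3% of members and 1.24% of all windows on the strand of the gene, and CTTCC, which CTTTCC does not contain but can overlap, in 35.1% and 6.05%. Over the whole promoter, 250 bases before the start to 50 after, and on both strands, CCGGAAG was in 24.3% of members and 8.75% of all, AAGATGGC in 10.8% and 3.17%, and TATAAA in 13.5% and 14.2%. These matches are letters in an annotated window and not measured start sites.

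Members with and without a run of at least 8 C or T lay close together in the expression data. In the PFC against the other regions, the 20 tested members with a run had a median log2 difference of -0.30 and the 14 without one a median of -0.33. In the VTA these medians were 0.13 and 0.16, and for cocaine against saline across regions -0.062 and -0.076.

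The level of the group followed region. Over the 29 tested members with a value on every array, the geometric mean index on the saline and cocaine array was 14588 and 14512 in the amygdala, 17155 and 17173 in the CPU, 16205 and 16701 in the nucleus accumbens, 14491 and 12465 in the PFC, and 17808 and 16181 in the VTA. The 4 arrays of the amygdala and PFC were the lowest, and the PFC cocaine array was the lowest of all. On that array 22 of the 29 members had their lowest value, and 11 had their highest on the VTA saline array.

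**Figure D1:**
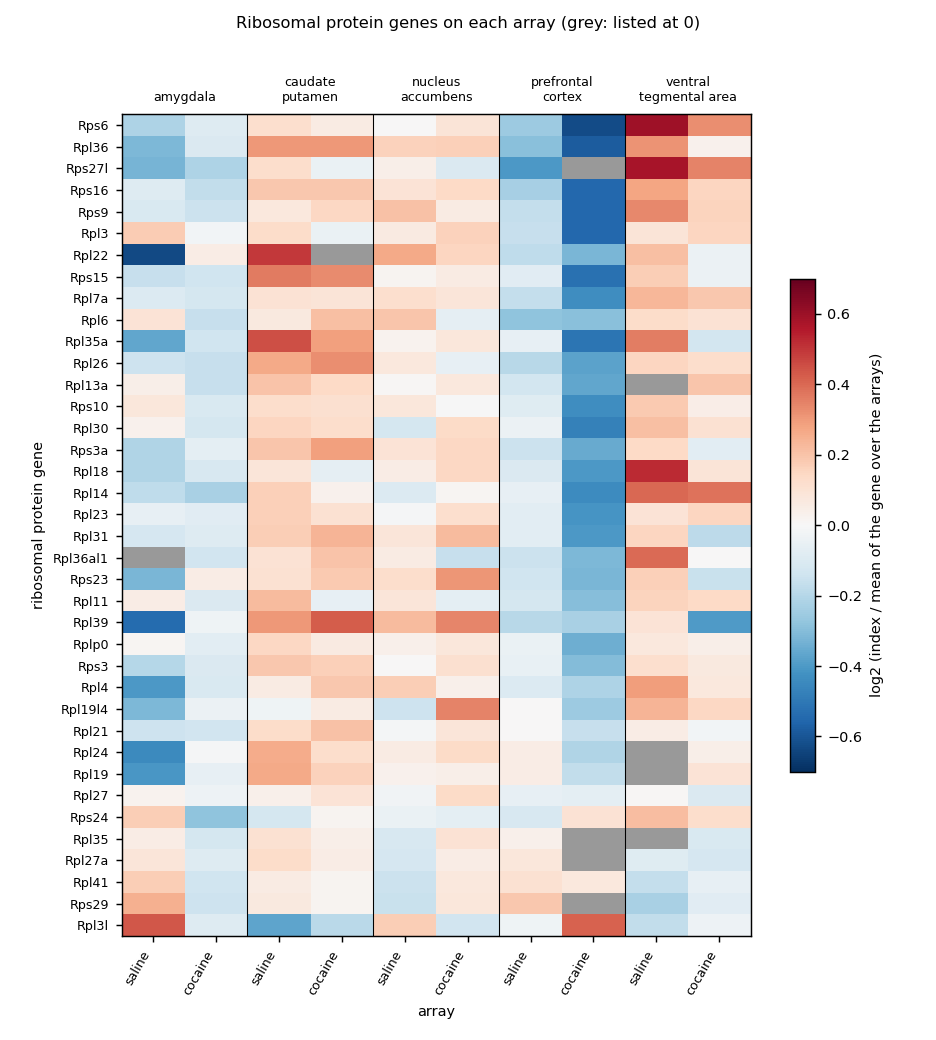
Heat map of the 38 tested ribosomal protein genes (vertical axis, ordered by their PFC difference) on the 10 arrays (horizontal axis). Colour is log2 of the index over the mean of the gene across arrays, and grey cells were listed at 0. The PFC cocaine column is the lowest for most genes, with Rpl3l and Rps24 among the exceptions.

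Most members moved with one another across the arrays. The Pearson correlation of a member with the mean of the other members, over 10 arrays and the 29 genes, had a median of 0.871. Rps16, a small subunit protein near the decoding site, followed the others most closely at 0.985, then Rpl36 at 0.967, Rpl7a at 0.950, Rps9 at 0.942 and Rps3 at 0.941. Without the PFC cocaine array the median was 0.765. These correlations describe arrays that share region, depth of signal and scaling.

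A correlation under 0.5 was found for 3 members. Rpl3l, a relative of Rpl3 best known from muscle, ran opposite to the rest with r of -0.769. Its index was 3174 and 2206 on the saline and cocaine arrays of the amygdala, 1817 and 2064 in the CPU, 2646 and 2139 in the nucleus accumbens, 2304 and 3134 in the PFC, and 2089 and 2291 in the VTA. The CPU arrays were its lowest, while its highest were amygdala saline and PFC cocaine. Rpl41, which encodes a very short basic protein of the large subunit, had r of -0.391, and Rps24, a small subunit protein, 0.040. A brighter probe set for Rps24 and a pseudogene, not among the members, was lowest on the PFC arrays (12487 and 9882).

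Of 38 members, 6 were lower in the prefrontal cortex than in the mean of the other 4 regions by limma at an adjusted p under 0.05, against 3.67% of all 5232 tested probe sets (192 lower), and none was higher, against 1.34%. The difference was below 0 in 33 of 38, with a median log2 difference of -0.30 over the members and 0.0016 over all probe sets, of which 50.6% were above 0. Other abundant probe sets, with a mean index of 10000 or more, were called lower in 59 of 522, 11.3%, nearer to the share of the members, and had a median of -0.047. Here and below, these leave out ribosomal probe sets with 1 symbol but keep those with several symbols, 10 of which are among the 59. Among the 6 were Rps6, Rps16 and Rps9 of the small subunit and Rpl36, Rpl7a and Rpl26 of the large subunit.

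Rps6 is the small subunit protein that S6 kinases phosphorylate. Its index was 13959 and 15238 on the saline and cocaine arrays of the amygdala, 17613 and 16897 in the CPU, 16284 and 17277 in the nucleus accumbens, 13589 and 10506 in the PFC, and 24469 and 20345 in the VTA. Both PFC arrays lay below all 8 others, and both VTA arrays above them. The regional means were 12048 ± 2180 in the PFC and 22407 ± 2917 in the VTA (SD, n = 2, over 1 saline and 1 cocaine array). Against the other regions Rps6 fell by 0.55 on the log2 scale in the PFC (SE 0.11, limma adjusted p = 0.0304).

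Rps16 had an index of 21715 and 20506 in the amygdala, 26312 and 26280 in the CPU, 24639 and 25400 in the nucleus accumbens, 19677 and 15784 in the PFC, and 27970 and 25591 in the VTA, saline before cocaine. Its PFC arrays were below every other array, with the amygdala next. The log2 difference of the PFC was -0.49 ± 0.088 (SE), with a limma adjusted p of 0.0232.

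Rps9, which sits near the mRNA entry channel of the small subunit, had an index of 13742 and 13358 in the amygdala, 15623 and 16363 in the CPU, 17095 and 15420 in the nucleus accumbens, 13186 and 10118 in the PFC, and 18718 and 16501 in the VTA. Both PFC arrays were the lowest, though the saline one was close to the amygdala arrays. Its PFC difference was -0.45 ± 0.095 (SE, limma adjusted p = 0.0387).

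Rpl36, a large subunit protein, had an index of 11135 and 12930 in the amygdala, 17137 and 17115 in the CPU, 15525 and 15586 in the nucleus accumbens, 11334 and 9269 in the PFC, and 17248 and 14184 in the VTA. Its amygdala and PFC arrays overlapped and lay below the other 3 regions. The PFC difference was -0.54 ± 0.11 (SE, limma adjusted p = 0.0313). Rpl7a differed by -0.37 (limma adjusted p = 0.0402) and Rpl26 by -0.35 (limma adjusted p = 0.0438), and both had their 2 PFC arrays below all others.

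Other members of known role did not pass the threshold on the adjusted p in the PFC. Rpl3, which reaches towards the peptidyl transferase centre, had 19824 and 15161 in the PFC against 21430 to 25102 elsewhere, a difference of -0.44 ± 0.11 (SE, limma adjusted p = 0.0573). For Rplp0, which anchors the P stalk, the PFC difference was -0.24 (limma adjusted p = 0.184), and for Rps3, at the mRNA entry site, -0.22 (limma adjusted p = 0.253). Both PFC arrays lay below all 8 others for 8 of 29 members with a value on every array (Rps6, Rps16, Rps9, Rpl3, Rpl7a, Rpl6, Rpl26 and Rpl11), against 5.84% of all such probe sets. For no member were both above, against 2.92%.

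The count in the PFC depended on single arrays. It was 15 without the amygdala saline array, 11 without the amygdala cocaine array and 4 without the PFC saline array, and 0 without any 1 of the other 7 arrays, including the PFC cocaine array, where the median was -0.17. Among saline arrays alone, with no test, the PFC lay below the mean of the other regions for 29 of 33 members, with a median of -0.17, and the amygdala for 24 of 33, with a median of -0.20. The lowest saline value lay in the PFC for 13 of 33 members, 39.4%, against 22.1% of all probe sets, and in the amygdala for 14 of 33, 42.4%, against 20.5%. Among cocaine arrays alone the PFC had the lowest value for 28 of 33 members, 84.8%, against 26.2% of all probe sets, and this includes the array that stood apart.

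**Figure D2:**
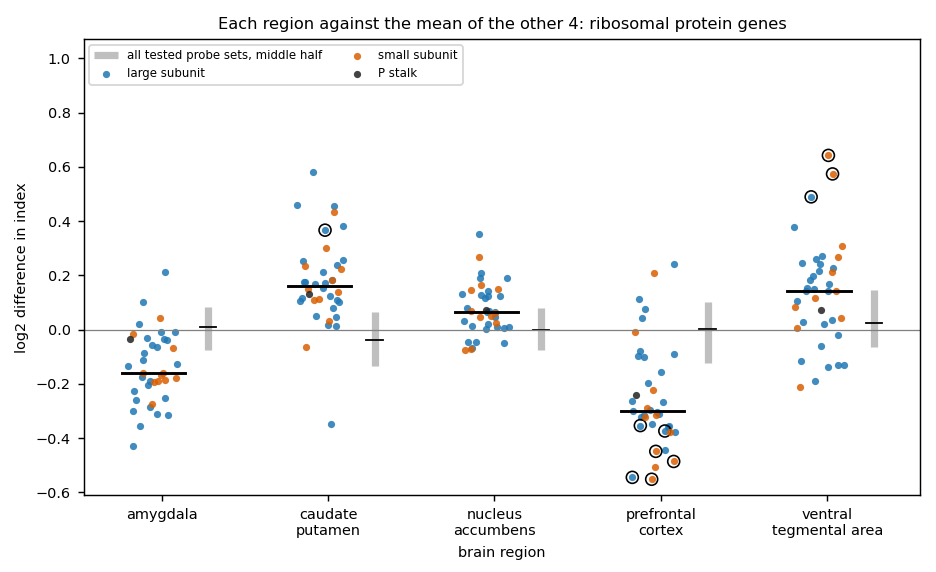
Log2 difference of each region (horizontal axis) from the mean of the other 4 (vertical axis, log2) for the 38 tested members, coloured by subunit. Circled points passed the limma threshold, black lines are member medians and grey bars span the middle 50% of all tested probe sets. Member medians run from -0.30 in the PFC to 0.16 in the CPU.

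In the ventral tegmental area 3 of 38 members were higher by limma, against 7.84% of all probe sets (410 of 5232), a share near that background, and none was lower, against 3.23%. The median log2 difference was 0.14 for members and 0.024 for all probe sets, and 30 of 38 members were above 0, against 57.6% of all. Other abundant probe sets were called higher in 84 of 522, 16.1%, with a median of 0.089. The 3 were Rps6, Rps27l and Rpl14.

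Rpl14, a large subunit protein, had an index of 6927 and 6676 in the amygdala, 8792 and 7995 in the CPU, 7324 and 7906 in the nucleus accumbens, 7521 and 5774 in the PFC, and 10340 and 10195 in the VTA. The VTA arrays agreed closely and lay above all others, with a mean of 10268 ± 103 (SD, n = 2). Its VTA difference was 0.49 ± 0.099 (SE, limma adjusted p = 0.0178). Rps6 rose by 0.57 ± 0.11 (SE, limma adjusted p = 0.0147).

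Rps27l, a relative of Rps27 that p53 can induce, had an index of 1715 and 1850 in the amygdala, 2345 and 2084 in the CPU, 2212 and 2002 in the nucleus accumbens, 1625 on the PFC saline array, and 3206 and 2737 in the VTA. On the PFC cocaine array it was listed at 0, so the fit used 9 arrays. Its VTA arrays were the highest, and the difference was 0.64 ± 0.10 (SE, limma adjusted p = 0.00993).

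For 3 of 29 members (Rpl7a, Rpl14 and Rps6) both VTA arrays lay above all 8 others, against 13.2% of all probe sets, and for none below, against 4.78%. Rpl14 did not pass under quantile normalization, at 0.37 (limma adjusted p = 0.0915). The VTA count was 0 without either VTA array, 1 without either CPU array and 6 without the amygdala cocaine array.

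**Figure D3:**
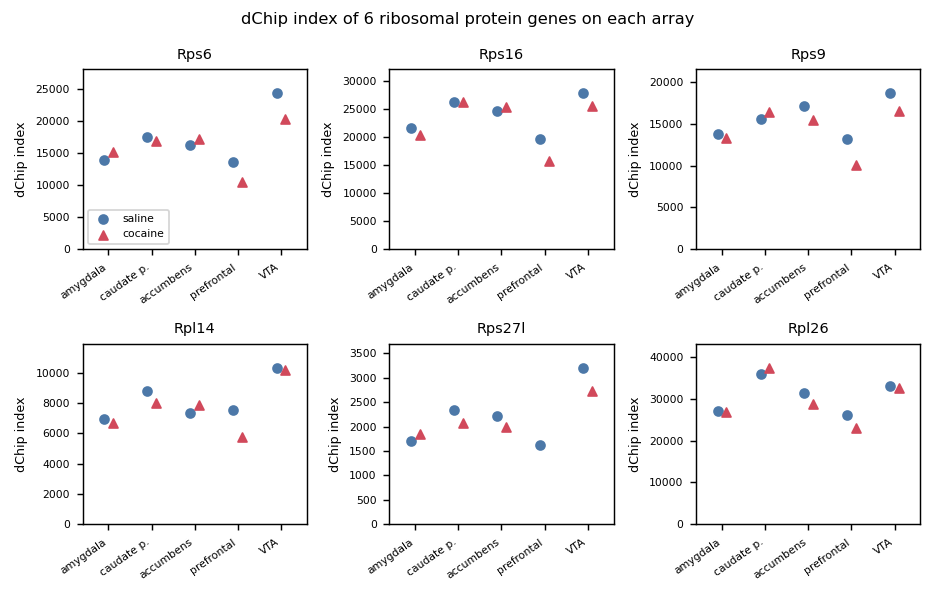
dChip index (vertical axis, linear from 0) of 6 ribosomal protein genes on the saline (circle) and cocaine (triangle) array of each region (horizontal axis). Rps6, Rps16 and Rps9 are lowest on both PFC arrays, and Rps6, Rpl14 and Rps27l are highest on both VTA arrays.

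In the caudate putamen 1 of 38 members, Rpl26, was higher by limma, against 1.74% of all probe sets, and none was lower, against 2.35%. Rpl26, a large subunit protein that can bind the p53 mRNA, had 35928 and 37430 in the CPU, 33155 and 32582 in the VTA, 31464 and 28738 in the nucleus accumbens, 27023 and 26801 on the amygdala arrays, and 26165 and 23109 in the PFC. On this chosen probe set the CPU arrays were above all others, with a difference of 0.37 ± 0.078 (SE, limma adjusted p = 0.0426). The other probe set of Rpl26 was highest in the VTA, with 23418 and 21260 there and 21132 and 20524 in the CPU. With the mean over both probe sets the CPU difference was 0.334 (limma adjusted p = 0.07975). The direction was broad, since 36 of 38 members were above 0, against 39.9% of all probe sets, with a median of 0.16 for members and -0.037 for all. Of 522 other abundant probe sets 21, 4.02%, were called higher, and their median was 0.0067. Both CPU arrays were above all others for Rpl21, Rps3, Rps3a, Rpl26 and Rps15, 5 of 29 members against 4.7% of all. They were below all others for Rpl3l alone, against 8.56%. Rps3a has a single probe set, and the other probe sets of Rpl21, Rps3, Rpl26 and Rps15 did not have both CPU arrays on top. For Rps3 the other probe set had 18582 and 17657 in the CPU and 19092 on the VTA saline array. The count of calls was 6 without the amygdala cocaine array, 3 without the amygdala saline array, 2 without the PFC saline array and 0 without any 1 of the other 7 arrays.

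In the amygdala no member passed the limma threshold in either direction, against 0.401% of all probe sets higher and 0.21% lower, and 7 of 38 had an unadjusted p under 0.05. The difference was below 0 in 34 of 38 members, with a median of -0.16, while 53.5% of all probe sets were above 0. Other abundant probe sets were below 0 in 49%, with a median of 0.0041, but genes of oxidative phosphorylation were below 0 in 45 of 53, with a median of -0.18. The lowest differences were Rpl22, an RNA-binding large subunit protein, at -0.43 and Rpl39, which lines the exit tunnel, at -0.35. The highest were Rpl3l at 0.21 and Rpl3 at 0.10. Both amygdala arrays lay above all others for no member, against 1.41% of all probe sets, and below for none, against 1.27%. Without the amygdala cocaine array 1 member was lower by limma.

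In the nucleus accumbens no member passed the limma threshold, against 0.459% of all probe sets higher and 0.0765% lower, and none had an unadjusted p under 0.05. Differences were small, with a median of 0.066, and 32 of 38 were above 0, against 49.6% of all. Other abundant probe sets were below 0 in 45%, with a median of 0.018. Rpl39 at 0.35 and Rps23, a decoding centre protein, at 0.27 were the highest, and Rps24 at -0.074 and Rps29 at -0.070 the lowest. No member had both accumbens arrays above all others, against 2.25% of all probe sets, or below, against 1.55%.

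The regional order was also seen in oligodendrocyte genes, whose part in these differences was not tested. The summed index of 6 such genes was 82580 and 75974 on the saline and cocaine arrays of the PFC, 96836 and 86505 in the amygdala, 98942 and 98408 in the nucleus accumbens, 116078 and 130731 in the VTA and 133966 and 125936 in the CPU, and none was listed at 0. Of these 6, the myelin genes Mobp and Cnp were lower in the PFC, 4 were higher in the VTA and 2 in the CPU by limma. In tissue RNA, fewer cells of a type and less RNA per cell cannot be told apart.

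Among partners of the ribosome, 2 genes were measured. Naca, a subunit of the complex that binds nascent chains at the exit tunnel, was lower in the PFC by -0.66 ± 0.072 (log2, SE, limma adjusted p = 0.00292) and higher in the VTA by 0.38 (limma adjusted p = 0.0135). Rack1, a scaffold on the small subunit, was lower in the PFC by -0.42 ± 0.092 (SE, limma adjusted p = 0.0428).

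Of 21 translation factors tested, none passed in the PFC, where their median was -0.056. The elongation factor Eef1a2 was lower in the CPU at -0.67 (limma adjusted p = 0.0158), and the helicase Eif4a2 was higher in the VTA at 0.47 (limma adjusted p = 0.0146). No gene passed in any region among 8 tested genes of ribosome assembly and RNA polymerase I or 8 of the S6 kinase and TOR pathway. The nucleolar protein Ncl, in the first of these lists, had -0.52 in the PFC (limma adjusted p = 0.0771), and the kinase gene Rps6kb1 0.0011.

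Of 10 tested genes of the mitochondrial ribosome, Mrpl13 at 0.56 and Mrps14 at 0.32 were higher in the VTA by limma and none passed in the other regions. Oxidative phosphorylation genes, another abundant group, had 53 tested. By limma 5 were lower in the PFC (median -0.16), against 3.67% of all probe sets. In the VTA 10 were higher and 1 lower (median 0.25), against 7.84% and 3.23%, and in the CPU 3 were higher (median 0.11), against 1.74%. In the amygdala 45 of 53 had a difference below 0 (median -0.18), while 53.5% of all probe sets were above 0.

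For cocaine against saline with region as a block, none of 38 members passed the limma threshold, against 0% of all 5244 probe sets. An unadjusted p under 0.05 was found for 1 member and for 69 of all probe sets. The change was below 0 in 31 of 38 members, against 54.7% of all, with a median of -0.064 for members and -0.0085 for all. Other probe sets of mean index 10000 or more were below 0 in 438 of 529, 82.8%, with a median of -0.055, so the share among members was near that of other abundant transcripts. These again include ribosomal probe sets with several symbols.

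The 5 lowest changes were Rpl36al1 at -0.17 ± 0.093, Rpl35a at -0.17 ± 0.11, Rpl11 at -0.16 ± 0.062, Rps10 at -0.15 ± 0.067 and Rps9 at -0.14 ± 0.076 (log2, SE, with region as a block). All had a limma adjusted p of 0.9999. Rpl36al1 was listed at 0 on the amygdala saline array, so its value rests on 4 regions. The 3 highest were Rpl19l4 at 0.10 ± 0.11, Rpl22 at 0.045 ± 0.16 and Rpl39 at 0.044 ± 0.13.

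Rpl11 binds Mdm2 when ribosome assembly fails, and was the member with an unadjusted p under 0.05 (0.0366). Its index went from 27528 on the saline to 24731 on the cocaine array in the amygdala, 30972 to 25512 in the CPU, 28209 to 25321 in the nucleus accumbens, 24364 to 21571 in the PFC and 29548 to 29264 in the VTA. The cocaine array was lower in all 5 regions, by least in the VTA. Rps10 and Rpl7a were also lower in all 5, giving 3 of 29 members against 1.63% of all probe sets, and none was higher in all 5, against 1.45%.

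Within a region there was 1 array per treatment, so ratios of cocaine to saline are given with no test. In the PFC the ratio was below 1 for 32 of 34 members, against 48% of all probe sets, with a median log2 ratio of -0.26 for members and 0.010 for all. Other probe sets of mean index 10000 or more also ran lower there, 396 of 509 with a median of -0.14. The lowest were Rpl35a at -0.46 (12718 to 9257), Rps15 at -0.44 (19333 to 14242) and Rpl30 at -0.43 (3316 to 2459). Above 0 were Rpl3l at 0.44 and Rps24 at 0.21, and Rpl6 came next at -0.0071. A brighter probe set for Rps24 and a pseudogene, not among the members, went the other way at -0.34 (12487 to 9882). No member differed by 1.5-fold or more in either direction, against 1.72% of all lower and 3.2% higher.

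The PFC cocaine array was the one that stood apart, and on it Rpl27a, Rpl35, Rps29 and Rps27l were listed at 0 beside saline values of 38143, 33094, 57609 and 1625. In the same pair, 5 of 6 tested astrocyte genes were lower, with a median of -0.22, and the summed index of 7 astrocyte genes went from 123589 to 104801, with 1 gene at 0 on the cocaine array. In the amygdala pair 5 of 6 tested astrocyte genes were also lower, with a median of -0.21, while the member median there was -0.019. The part of these genes in the ratios was not tested. Without the PFC pair, the change across regions was below 0 in 26 members, with a median of -0.026.

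In the VTA the ratio was below 1 for 29 of 34 members, against 42.4% of all probe sets, with a median log2 ratio of -0.10 for members and 0.033 for all. Other abundant probe sets were lower in 45.8%, with a median of 0.016. Rpl39 at -0.49 (19181 to 13621), Rpl35a at -0.49 (16936 to 12073) and Rpl18 at -0.43 (14275 to 10574) were lowest, and Rps29 at 0.15, Rpl3l at 0.13 and Rpl41 at 0.11 highest. Rpl13a, Rpl19, Rpl24 and Rpl35 were listed at 0 on the saline array. In this pair, 5 of 6 oligodendrocyte genes, all 8 tested dopamine neuron genes and all 4 tested blood and vessel genes were higher with cocaine, with medians of 0.20, 0.24 and 0.27. The summed index of 5 blood and vessel genes went from 41710 to 50471, and the part of these markers in the ratios was not tested. The dopamine neuron list also had a median of 0.23 in the PFC pair, where 2 of 7 were lower. Against the other regions, 3 of its 8 tested genes were higher in the VTA by limma and 1 was lower.

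In the nucleus accumbens the ratio was below 1 for 12 of 38 members, against 59.4% of all probe sets, with a median of 0.060 for members and -0.030 for all. Other abundant probe sets were lower in 60.4%, with a median of -0.042. Rpl19l4 at 0.49 (10076 to 14178), Rpl30 at 0.25 and Rps29 at 0.24 were highest, and Rpl3l at -0.31, Rpl6 at -0.26 and Rpl36al1 at -0.22 lowest.

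In the amygdala 20 of 37 members were lower with cocaine, against 55% of all probe sets, and the median was -0.019. Other abundant probe sets were lower there in 59.1%, with a median of -0.064. Rpl22 went from 7680 to 12356, a log2 ratio of 0.69, and was the only member that differed by 1.5-fold or more in any region. Probe sets past that fold made up 1.42% higher and 7.47% lower in the amygdala, 0.0382% and 0.115% in the CPU, 0.0573% and 0.172% in the nucleus accumbens, and 0.895% and 0.758% in the VTA. In the amygdala Rpl39 at 0.51 and Rpl24 at 0.43 came next, and Rpl3l at -0.52, Rps24 at -0.45 and Rps29 at -0.39 were lowest. All 4 tested blood and vessel genes were lower in the amygdala pair, with a median of -0.46, and their part in the ratios was not tested. In the CPU 23 of 37 members, 62.2%, were lower, against 59.2% of all, with a median of -0.017. Other abundant probe sets were lower more often in the CPU, in 68.4%, with a median of -0.048. There Rpl11 at -0.28, Rpl3 at -0.18 and Rps27l at -0.17 were lowest, and Rpl3l at 0.18, Rpl6 at 0.14 and Rps24 at 0.14 highest. The other probe sets of these genes had -0.097 for Rpl11 and, with the sign turned, 0.089 for Rpl3 and -0.10 for Rpl6. That of Rpl3l had a low index in the CPU, 1003 and 980. Rpl22 was listed at 0 on the cocaine array.

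**Figure D4:**
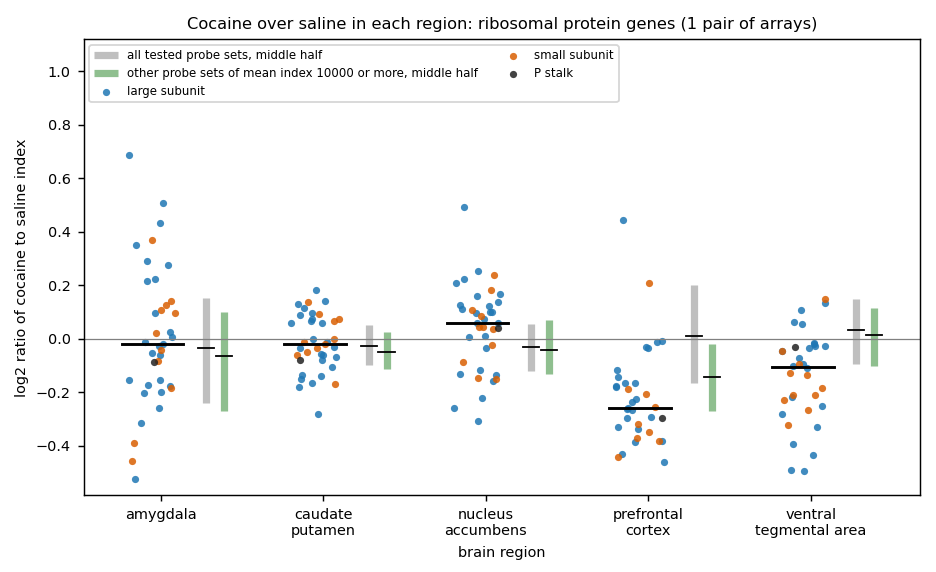
Log2 ratio of cocaine to saline index (vertical axis) of the tested members in each region (horizontal axis), 1 pair of arrays per region, coloured by subunit, with black lines at member medians. Bars span the middle 50% of all tested probe sets (grey) and of other probe sets of mean index 10000 or more (green). The latter include ribosomal probe sets with several symbols. Member medians are -0.26 in the PFC and 0.060 in the nucleus accumbens.

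Probe sets of 1 gene did not always agree. The 15 genes with several probe sets differed most among them in cocaine change for Rps15, Rpl21 and Rps29. The chosen Rps15 probe set went from 19333 to 14242 in the PFC, while the other probe sets of that gene went from 4951 to 7316 and from 11159 to 16364, log2 ratios of -0.44, 0.56 and 0.55. In the amygdala the order was turned, at 0.023, -0.22 and -0.44. The direction of Rps15 with cocaine is therefore uncertain. Rpl21 had 4 probe sets with PFC ratios of -0.16, 0.18, -0.11 and -0.23, and both probe sets of Rps29 were listed at 0 on the PFC cocaine array. Over all probe sets that were not chosen, 12 of 17 were lower in the PFC, with a median of -0.16, and 11 of 17 in the VTA, with a median of -0.12.

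**Figure D5:**
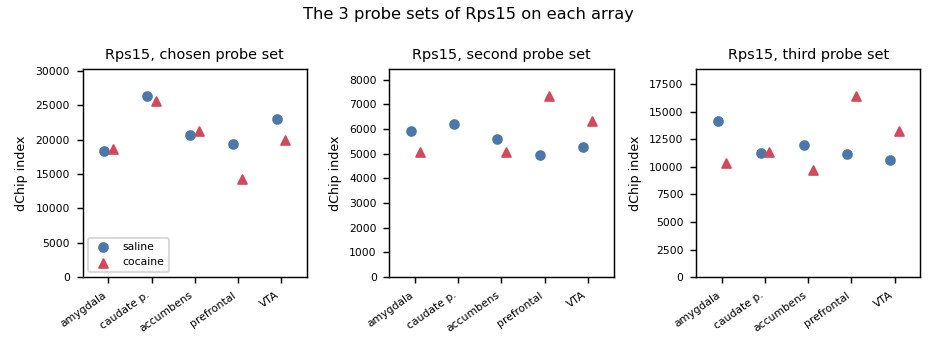
dChip index (vertical axis, linear from 0) of the 3 probe sets of Rps15 on the saline (circle) and cocaine (triangle) array of each region (horizontal axis). In the PFC the chosen probe set is lower with cocaine and the other 2 are higher. A value listed at 0 is not drawn.

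The 3 members left out by the filter had low index on all arrays. Rpl17 lay between 1000 and 1668, Rpl5, which joins Rpl11 in binding 5S ribosomal RNA, between 659 and 901, and Rplp1l3 between 262 and 412. A low index of a probe set is no level of the gene, since probe sets differ in how brightly they bind. Rplp1 and Rplp2, the other proteins of the P stalk, were not measured by a probe set with a single symbol.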

How the data were processed

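The authors, per the labels, deposited an expression index computed with dChip, an intensity on a linear scale. Its version, model and scaling were not given in the sources used here. No further normalization was applied. Exact zeros were treated as missing, values under the 20th percentile of values above 0 (index 1028) were raised to it, and log2 was taken. Tests were run on the 60% of probe sets with the highest mean index (5244) with limma 3.58.1 in R 4.3.3 (lmFit, eBayes with intensity trend). The fit was checked on simulated data with planted changes larger than any fitted member difference here, so detection at the sizes reported was not checked. Each region was compared with the average of the other 4, adjusting for treatment (5232 probe sets), and cocaine against saline with region as a block (4 residual degrees of freedom). P-values were adjusted by Benjamini-Hochberg over all tested probe sets, with a threshold of 0.05. The number of arrays limits the precision.

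Members and lists were chosen with earlier results of these data known. Named were up to 4 highest and 4 lowest members past the threshold per region (else 2 and 2), the 5 lowest and 3 highest for cocaine, the 3 lowest and 3 highest ratios per region, members listed at 0, Rps6, Rps3, Rpl3 and Rplp0, 3 genes with discordant probe sets, and up to 3 genes per list. Rpl7a and Rpl26 in the PFC, members with non-overlapping arrays and those in the correlation were named after their values were seen. Gene names came from the platform annotation. Alternatives were zeros raised to the floor, a pseudocount of 100 without a floor, a floor at the 10th percentile, no filter, median scaling, quantile normalization, the mean over probe sets of a gene, no intensity trend and leaving out arrays. Leaving out both arrays of a region was added after the data were seen.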

Additional observations from a re-analysis of the deposited data

Results flagged for a closer look

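The direction of the cocaine to saline ratio of ribosomal protein genes was not the same in all regions. The median log2 ratio over the members was above 0 in the nucleus accumbens (0.060). It was below 0 for the amygdala (-0.019), caudate putamen (-0.017), prefrontal cortex (-0.26) and ventral tegmental area (-0.10). Each region holds 1 pair of arrays, so the difference between regions was not tested. The amygdala and caudate putamen medians turned to above 0 under another scaling.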

How the results depend on the processing

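The number of members past the threshold moved with the processing, while the medians of the region comparisons kept their sign under every alternative that left all arrays in. With arrays left out, the nucleus accumbens median reached -0.0031. In the caudate putamen the count was 0 with zeros raised to the floor, with no filter, with median scaling and with the mean over probe sets, and 2 with quantile normalization. In the prefrontal cortex it was 2 with zeros raised to the floor (Rps16 and Rps27l), 0 with no filter, and 1 with median scaling and 1 with quantile normalization (Rps16 in both). It was 9 with the mean over probe sets, which added Rpl3, Rpl6 and Rpl11. In the ventral tegmental area it was 0 with no filter and 2 with quantile normalization, where Rpl14 did not pass. The cause was not tested. Leaving out arrays gave 0 to 1 calls in the amygdala, 0 to 6 in the caudate putamen, 0 to 19 in the prefrontal cortex (19 without both amygdala arrays), 0 to 6 in the ventral tegmental area, 0 in the nucleus accumbens and 0 for cocaine, where 26 to 31 members were below 0.

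Members lower with cocaine in the caudate putamen numbered 15 under quantile normalization, with a median of 0.023, and the amygdala median reached up to 0.077. With zeros raised to the floor the cocaine change was 0.49 for Rpl36al1 and -0.77 for Rpl22, each having 1 array at 0. Without the amygdala pair it was -0.072 for Rpl39 and -0.17 for Rpl22, whose ranges over regions left out were -0.072 to 0.18 and -0.17 to 0.14.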

Other observations

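A further 40 ribosomal probe sets carry several symbols, mostly a gene with its copies or pseudogenes, and are not among the members. By limma 10 of 39 tested were lower in the prefrontal cortex, against 3.67% of all tested probe sets. In the ventral tegmental area 6 of 39 were higher, against 7.84%. The median log2 differences were -0.32 and 0.20. Among the other abundant probe sets, which include most of these, 11.3% were lower in the prefrontal cortex and 16.1% higher in the ventral tegmental area. The share higher in the ventral tegmental area was therefore near that of abundant probe sets. The lowest in the prefrontal cortex was a probe set for Rps26 and its copies at -0.71 ± 0.095 (SE, limma adjusted p = 0.00702), which was higher in the ventral tegmental area at 0.49 (limma adjusted p = 0.0149). A probe set for Rps24 and a pseudogene had -0.64 (limma adjusted p = 0.0158) in the prefrontal cortex, where the single-symbol Rps24 probe set had -0.0070. A probe set for the P stalk protein Rplp2 and its copies had -0.47 (limma adjusted p = 0.0146).

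With cocaine, 38 of 39 of these probe sets were lower in the prefrontal cortex (median log2 ratio -0.28), 31 of 37 in the ventral tegmental area (median -0.065) and 13 of 39 in the nucleus accumbens (median 0.079), on the same arrays as the members and with no test.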
